A study of Mus musculus with 9 samples.

Results

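Interferon-stimulated genes and genes of MHC class I antigen presentation were followed in murine Tc17 cells that were left with solvent, exposed to dimethyl fumarate (DMF), or exposed to DMF together with glutathione (GSH). The 42 genes were taken by symbol from a list, and each matched 1 of the 41388 rows of the expression table. They fall into 5 nucleic acid sensors and their helpers, 17 antiviral effectors, 4 enzymes that attach or remove ubiquitin, ISG15 or ADP-ribose, 10 interferon-inducible GTPases and 6 genes of peptide presentation. A mean of at least 10 normalized counts over the 9 libraries was required for testing, which 32 members reached and 10 did not. Isg20, the lowest member tested, had a mean of 16.3, and Ifit1, the highest member left out, had a mean of 7.43.

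Tc17 cells are IL-17-producing CD8+ T cells. They were obtained from naive CD62L+CD44-CD8+ T cells of wild-type C57BL/6 mice, which were adult and matched for age and sex according to the methods. For 2 days all cultures received plate-bound anti-CD3 (5 µg/ml), anti-CD28 (0.5 µg/ml), IL-2 (50 U/ml), TGF-β (0.5 ng/ml), IL-6 (30 ng/ml) and an antibody that neutralizes IFN-γ (5 µg/ml). By the labels all cultures held 0.2% DMSO, without a further agent in Ctrl, with 20 µM DMF in the DMF cultures and with 20 µM DMF and 50 µM GSH in the DMF + GSH cultures. Each group had 3 libraries, replicate 1 from preparation batch 1 and replicates 2 and 3 from batch 2. For experiments in general the study names independent biological replicates, but the labels do not tie these libraries to separate mice or cultures, so that p-values measure the spread between these libraries, part of which may be technical.

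Interferons signal through paired receptor chains, IFNAR1 with IFNAR2 for type I interferons and IFNGR1 with IFNGR2 for IFN-γ. Receptor-bound Janus kinases then phosphorylate latent transcription factors in the cytosol. Type I interferons lead to a complex with IRF9 that binds the interferon-stimulated response element (ISRE), whereas IFN-γ leads to factors that bind the gamma-activated site (GAS). Many genes of the antiviral state respond to both types of interferon, while the guanylate-binding proteins (GBP), the immunity-related GTPases (IRG) and the genes of class I presentation are best known as responders to IFN-γ. In CD8+ T cells, IFN-γ is itself a main secreted product, and class I molecules display the peptides that other CD8+ T cells read.

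The start site regions of 7 members are shown because these genes carry the contrasts described below. Igtp, Irgm1 and Bst2 were higher with DMF, Gbp2 and Gbp3 were lower, B2m was an abundant member without a call, and Isg15 was barely detected. Each stretch runs 5′ to 3′ and ends at the base before the RefSeq start (GRCm38.p6), except that of Gbp2, which covers 30 bases around the match. Capitals mark the core letters of the ISRE, that is GAAA, any 2 bases and GAAA, or on the other strand TTTC, any 2 bases and TTTC. By the GENCODE vM21 annotation, the Irgm1 stretch lies in an exon of a noncoding Irgm1 transcript, and 22 bases of the Gbp2 stretch and 18 bases of the Gbp3 stretch lie in first exons.
Igtp, chr11:58199406-58199555 (plus strand): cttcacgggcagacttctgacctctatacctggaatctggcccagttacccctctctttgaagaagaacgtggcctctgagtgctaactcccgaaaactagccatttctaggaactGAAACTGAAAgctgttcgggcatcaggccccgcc
Irgm1, chr11:48871421-48871570 (minus strand): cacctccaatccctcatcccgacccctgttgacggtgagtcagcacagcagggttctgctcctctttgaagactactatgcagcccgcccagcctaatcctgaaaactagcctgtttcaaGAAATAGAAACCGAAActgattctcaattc
Bst2, chr8:71537473-71537622 (minus strand): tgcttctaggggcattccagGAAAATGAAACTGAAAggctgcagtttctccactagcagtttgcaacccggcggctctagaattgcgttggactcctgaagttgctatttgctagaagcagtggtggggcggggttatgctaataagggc
Gbp2, chr3:142620594-142620623 (plus strand): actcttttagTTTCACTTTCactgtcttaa
Gbp3, chr3:142559894-142560043 (plus strand): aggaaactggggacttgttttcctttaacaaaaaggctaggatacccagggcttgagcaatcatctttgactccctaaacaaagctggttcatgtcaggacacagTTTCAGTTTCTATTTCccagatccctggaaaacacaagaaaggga
B2m, chr2:122147537-122147686 (plus strand): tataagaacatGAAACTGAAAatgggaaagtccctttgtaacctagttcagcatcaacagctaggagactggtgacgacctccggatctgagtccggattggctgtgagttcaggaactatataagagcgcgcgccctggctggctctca
Isg15, chr4:156200819-156200968 (minus strand): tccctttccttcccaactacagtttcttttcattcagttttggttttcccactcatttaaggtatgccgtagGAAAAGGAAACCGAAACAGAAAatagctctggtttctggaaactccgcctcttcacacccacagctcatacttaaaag

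RefSeq windows from 250 bases before to 50 bases after the start were found for 28 of the 42 members. The ISRE core was present on either strand in 17 of these 28 members, against 3.99% of all 27025 genes with a window. The palindromic GAS letters TTCNNNGAA were present in 8 of the 28, against 9.55% of all genes. Among members that were higher with DMF, 3 of the 4 with a window held the ISRE core (Bst2, Igtp and Irgm1), and among those that were lower it was also 3 of 4 (Ddx58, Gbp2 and Gbp3). GAS letters were found in Bst2, Ifi35 and Igtp of the former and in 0 of the latter. Among the 13 members with a window that were tested but not called, 6 held the ISRE core and 4 the GAS letters (Gbp7, Ifit2, Irgm2 and Isg20), and among the 7 below the minimum it was 5 and 1 (Oas1a). With 4 windows in each called set, these counts are a description and were not tested. The letters were searched on both strands. In Bst2 the GAS letters overlap the first ISRE match, and neighbouring ISRE matches share letters in Irgm1, Bst2, Gbp3 and Isg15. A match is a description of these letters and not a binding site.

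Sequencing depth, recovered from the normalized counts, was 7671772 to 11589246 reads in Ctrl, 10382638 to 12669991 with DMF and 9753478 to 14511926 with DMF + GSH. Transcripts of CD8+ T cells were abundant in every library, with Cd8a at 9317 to 13778 normalized counts, whereas Cd4 did not exceed 4.4. Of 6 such markers, Cd8a was higher with DMF than in Ctrl (limma, log2FC 0.31, p adj = 0.0378) and Cd3g lower (log2FC −0.53, p adj = 0.0569). Cd3d and Cd3e were lower at p adj < 0.1 with the replicate number as a block (p adj = 0.000448 and 0.00135). Without the block they were not (p adj = 0.151 and 0.146), and Cd8b1 and Thy1 were not in either fit. Ctrl replicate 3, which was also the shallowest library, stood apart by transcripts of macrophages and monocytes. The summed level of 6 myeloid markers (Lyz2, Csf1r, Itgax, Cd14, C1qa and Siglech) was 201 there, with Lyz2 at 119 and Csf1r at 58.3. It was at most 25.2 in any other library. Itgax (7.11) and Siglech (0) were not raised in Ctrl replicate 3. The summed level of 5 B cell markers was 58.1 to 92.9 in the 9 libraries without separation of the groups and nearly all from Cd79b. That of 3 NK cell markers was 0.929 to 4.16 in Ctrl, 0 in all 3 DMF libraries and 0 to 2.2 with DMF + GSH, with Klra8 at 0 throughout. Of 2 markers of plasmacytoid dendritic cells, which are known for their output of type I interferon, the summed level was 108 to 154 in Ctrl, 76.5 to 102 with DMF and 124 to 165 with DMF + GSH, so that it was lowest with DMF without overlap. Nearly all of it came from Tcf4 (limma, DMF against Ctrl, log2FC −0.54 ± 0.13 SE, p adj = 0.0148; DMF + GSH against DMF, log2FC 0.68 ± 0.13 SE, p adj = 0.0118), and the defining marker Siglech was at 0 in every DMF and DMF + GSH library and at a mean of 0.31 in Ctrl. The part of these other cell types in the results was not tested. Counts of called genes that rest on Ctrl are also given without Ctrl replicate 3.

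Levels of the members, expressed as mean normalized count per kb of exon, ranged from 0.359 (Rsad2) to 15939 (B2m) (plot of levels by role). B2m, the light chain of class I molecules, had the highest level, and the class I heavy chains H2-K1 and H2-D1 followed with 4480.4 and 4477 per kb. Among the inducible GTPases, Gbp2 reached 1477 and Igtp 966 per kb, and among the effectors Bst2 reached 613 and Ifi35 211. The 17 effectors spanned 0.359 to 613 per kb, with Ifit2 at 65.5, Oas3 at 17.8 and the 10 members below the minimum, which that minimum fixed as low, at no more than 7.29 (Isg15). Of the 566615 reads on the 32 tested members, 415923 fell on the 6 presentation genes and 85900 on the 10 GTPases.

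**Figure D1:**
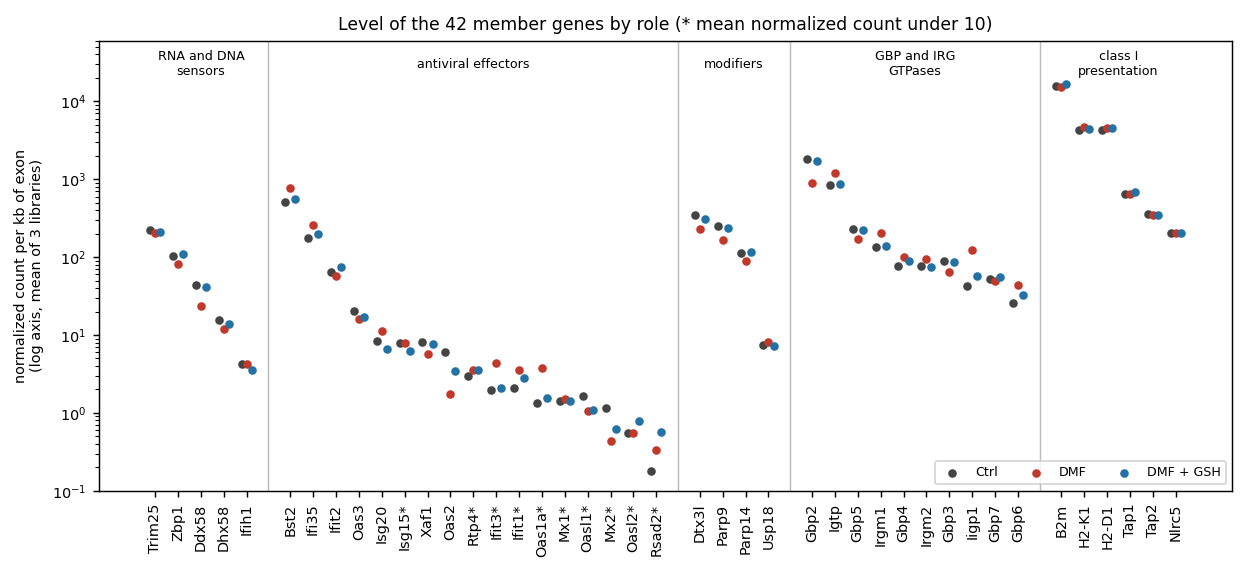
Mean normalized count per kb of exon (log axis) of the 42 members in Ctrl, DMF and DMF + GSH (3 libraries each), ordered by level within each role. Points are group means, and an asterisk marks the 10 members below a mean of 10. Averaged over the 9 libraries, presentation genes lie between 202 and 15939 per kb, and most effectors lie below 10.

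The first comparison asks how DMF alters interferon-stimulated transcripts of Tc17 cells, and the members moved in both directions (plot of fold changes). With DMF, the GTPase genes Iigp1, Irgm1 and Igtp, the row named Gbp6 and the effectors Bst2 and Ifi35 rose, by 1.40- to 2.92-fold. The GTPase genes Gbp2 and Gbp3, the sensor gene Ddx58, the effector Oas2 and the modifier genes Parp9 and Dtx3l fell, by 1.41- to 3.06-fold. None of the presentation genes was called. With limma-trend (Benjamini-Hochberg over 11599 genes), 12 of the 32 tested members were called at p adj < 0.1, 6 higher and 6 lower, which is 37.5% against 38.2% of all genes tested (19.9% higher and 18.3% lower). Under the stricter rule (p adj < 0.01 and log2FC of at least 0.75 in either direction), 1 member was called, Iigp1, against 2.89% of all genes. The share of called members was thus near that of all genes, and the median log2FC of the members was −0.06 against 0.0052 for all genes. In whole cultures, fewer cells of a type and less RNA per cell cannot be told apart.

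Replicate numbers paired the libraries, and with the number as a block 19 members were called (9 higher, 10 lower), 59.4% against 52.0% of all genes (27.2% higher, 24.8% lower), including all 12 above. The 7 added were Zbp1, Oas3, Parp14, the row named Gbp5, Gbp4, Irgm2 and H2-K1. The stricter rule then gave 4 members (Iigp1, Ddx58, Gbp2 and Oas2) against 6.80% of all genes. Without the library with myeloid transcripts, Ctrl replicate 3, 17 members were called (6 higher, 11 lower), or 53.1%, the 12 among them, against 43.2% of all genes, and with the block it was 20, or 62.5%, against 47.2%. By role these 17 were 3 of 5 sensors, 4 of 7 tested effectors, 3 of 4 modifiers, 7 of 10 GTPases and 0 of 6 presentation genes. This fit leaves replicate number 3 without a Ctrl library and, without the block, does not use the pairing. The median log2FC of the members was −0.20 in it, against −0.078 to 0.003 in fits with the block and 1 library left out. Without DMF replicate 1 the count was 7, against 15.2% of all genes. The stricter rule gave 0 members without DMF replicate 1 (0.0431% of all genes) or Ctrl replicate 1 (0.0172%), 2 without Ctrl replicate 3 (5.86%) or DMF + GSH replicate 3 (3.87%), and 5 without DMF replicate 2 (5.76%). All libraries of the groups were apart (no overlap of the ranges) for 10 of 32 members, or 31.2%, against 41.3% of all genes, and without Ctrl replicate 3 for 19 members, or 59.4%, against 60.1%.

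**Figure D2:**
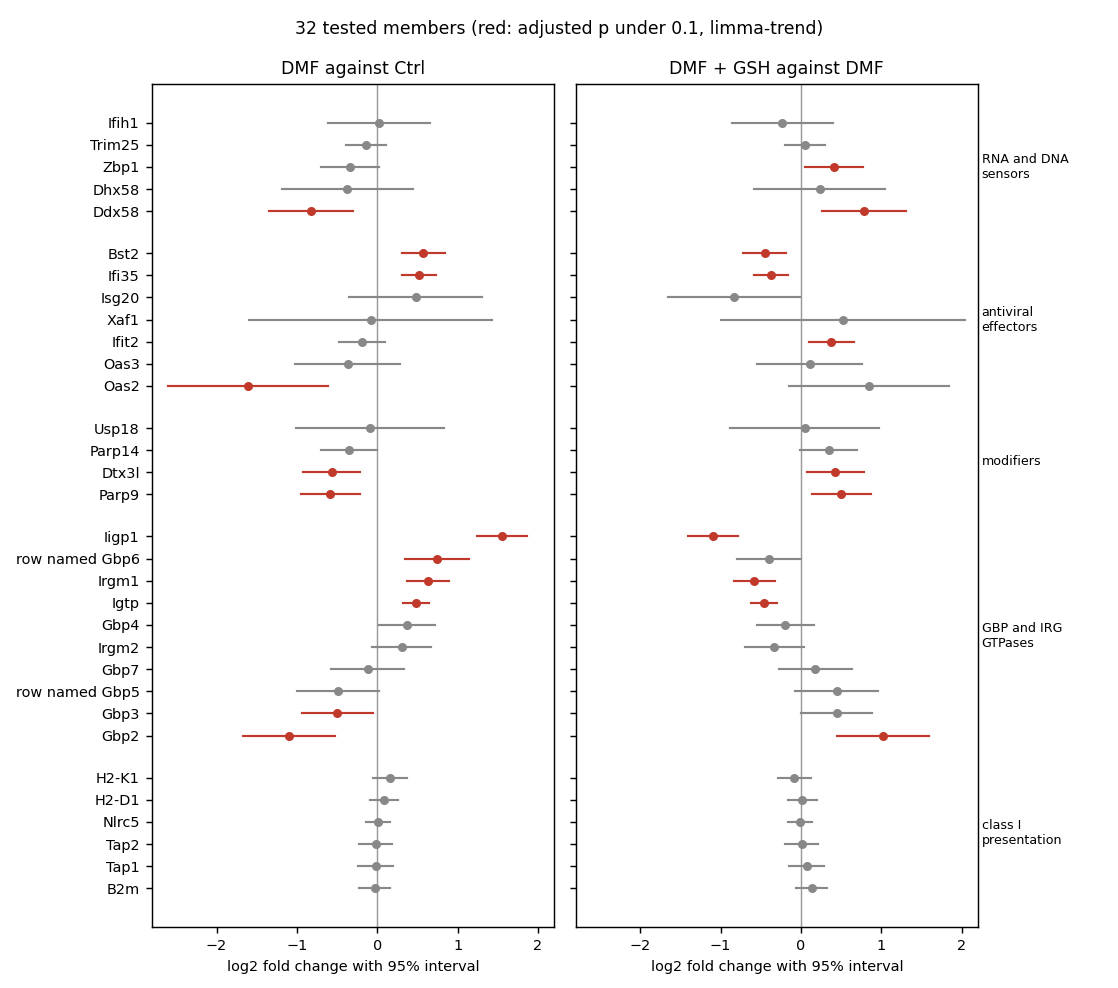
log2 fold change (x axis) with its 95% interval for the 32 tested members in DMF against Ctrl (left) and DMF + GSH against DMF (right), from limma-trend with the preparation batch as covariate, 9 libraries. Red marks p adj < 0.1. Presentation genes sit close to 0 with short intervals, while GTPases lie on both sides of 0 in each panel.

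Among the sensors, Ddx58 fell and the other 4 were not called. Ddx58 encodes RIG-I, a cytosolic sensor of viral RNA, and lies at chr4:40203773-40239828 (GRCm38). Its normalized counts were 433, 310.3 and 185 in Ctrl, 193, 193 and 119 in the DMF libraries and 369, 295 and 210.0 in the DMF + GSH libraries. The DMF libraries were low, although the lowest Ctrl library (185) lay under the highest DMF library (193), and DMF was lower within each replicate number (log2FC −0.83 ± 0.24 SE, p adj = 0.0284). The call was lost when Ctrl replicate 1 or 2 or DMF replicate 1 or 3 was left out (p adj up to 0.15) and held in all such fits with the block. Zbp1, a sensor of Z-form nucleic acids that can trigger necroptosis, had 409, 386 and 303 in Ctrl, 277, 343 and 247 in the DMF libraries and 386, 442 and 329 in the DMF + GSH libraries. It was not called with all libraries and was with the block (log2FC −0.34 ± 0.16 SE, p adj = 0.139; 0.00471 with the block), and also without Ctrl replicate 3 (p adj = 0.0531) or DMF replicate 2 (p adj = 0.0358). Trim25, a ubiquitin ligase that acts on RIG-I and the most abundant sensor gene, had 1301, 1471 and 1103 in Ctrl, 1094, 1193 and 1206 in the DMF libraries and 1196, 1346 and 1086 in the DMF + GSH libraries. Its Ctrl and DMF libraries overlapped only through Ctrl replicate 3, the library with myeloid transcripts, without which it was called lower (log2FC −0.27, p adj = 0.062, against −0.14 and 0.374 with it). With the block and all libraries Trim25 was not called (p adj = 0.123). Ifih1, encoding the RNA sensor MDA5, and Dhx58, encoding its relative LGP2, had 16 to 47 and 21 to 74 reads per library, and neither was called.

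Among the effectors, Bst2 and Ifi35 rose and Oas2 fell, and 4 of the 7 tested were not called. Bst2 (tetherin, chr8:71534255-71537456), which holds budding virus at the cell surface, had 423, 425 and 545 in Ctrl, 622, 721 and 721 in the DMF libraries and 397, 514 and 617 in the DMF + GSH libraries. Every DMF library exceeded every Ctrl library (log2FC 0.57 ± 0.12 SE, p adj = 0.00977). Ifi35 (chr11:101448407-101458698), a cytosolic protein induced by interferon, had 314, 299 and 310.0 in Ctrl, 440.1, 408 and 479 in the DMF libraries and 316, 345 and 366 in the DMF + GSH libraries. It was likewise higher in each DMF library than in any Ctrl library (log2FC 0.52 ± 0.094 SE, p adj = 0.00711), and both calls held with each library left out in turn. Oas2 (chr5:120730333-120749853), an oligoadenylate synthetase that activates RNase L, was a low gene with 5 to 42 reads per library. Its normalized counts were 43.7, 18.6 and 18.5 in Ctrl, 5.29, 11.1 and 6.77 in the DMF libraries and 20.9, 17.1 and 7.78 in the DMF + GSH libraries, so that all DMF libraries lay below all Ctrl libraries and Ctrl replicate 1 stood above the other Ctrl libraries (log2FC −1.61 ± 0.45 SE, p adj = 0.0253). The call was lost without Ctrl replicate 1 or DMF replicate 1 (p adj up to 0.141). Ifit2, an RNA-binding inhibitor of translation, was the effector with the next highest level and had 276, 267 and 225 in Ctrl, 213, 259 and 201 in the DMF libraries and 312, 290.3 and 270.3 in the DMF + GSH libraries, with overlap of Ctrl and DMF. Oas3, a further oligoadenylate synthetase, was called with the block (log2FC −0.37 ± 0.29 SE, p adj = 0.368; 0.0673 with the block) and without DMF replicate 2 (p adj = 0.0229). The exonuclease gene Isg20 and Xaf1, which encodes an antagonist of the apoptosis inhibitor XIAP, had 6 to 27 and 4 to 61 reads per library and were not called with all libraries. Without Ctrl replicate 3, Xaf1 was called lower (log2FC −1.02, p adj = 0.0906, against −0.084 and 0.936 with it), and without DMF replicate 2 so was Ifit2 (log2FC −0.32, p adj = 0.0641). With the block and all libraries, neither Xaf1 nor Ifit2 was called (p adj = 0.877 and 0.132).

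The other 10 effectors lay below the minimum mean. They were the ubiquitin-like modifier Isg15, the RNA-binding Ifit1 and Ifit3, the synthetase Oas1a with its relatives Oasl1 and Oasl2, the dynamin-like GTPases Mx1 and Mx2, Rsad2 (viperin) and the receptor transporter Rtp4. Each had 0 to 22 reads per library, and all 10 together had 430 reads in the 9 libraries. Their summed normalized counts were 42.6, 46.4 and 37.0 in Ctrl, 58.2, 73.6 and 26.1 in the DMF libraries, and 55.0, 50.5 and 26.3 in the DMF + GSH libraries. The groups overlapped in these sums. Single genes below the minimum were not tested in the main fit, and so few reads limit what can be seen for each. With no minimum, 12 of the 42 members were called, the same 12 as with it, which is 28.6% against 14.7% of all 26629 genes. These 2 shares are not of like sets, as 32 of the 42 members but only 11599 of the 26629 genes reach the minimum. Among genes that reach it the shares were 37.5% and 38.2%.

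Of the 4 modifier genes, Parp9 and Dtx3l fell and none rose. PARP9 is an ADP-ribosyltransferase and DTX3L is the ubiquitin ligase with which it forms a complex. Parp9 (chr16:35938470-35972605) had 1294, 1385 and 939.9 in Ctrl, 770.2, 903 and 719 in the DMF libraries and 1308, 1205 and 904 in the DMF + GSH libraries. Each DMF library was below each Ctrl library (log2FC −0.58 ± 0.16 SE, p adj = 0.0268). Dtx3l (chr16:35926511-35939151) had 2093, 2297 and 1510.2 in Ctrl, 1402, 1365 and 1171 in the DMF libraries and 1997, 1953 and 1394 in the DMF + GSH libraries and was lower in the same way (log2FC −0.57 ± 0.16 SE, p adj = 0.0271). These genes stand head to head on opposite strands and share 458 bases of exon, and whether reads were counted by strand is not given, so their values are not fully independent. Without DMF replicate 1 or 3 neither was called, and Parp9 was not called without Ctrl replicate 1 or 2 either (p adj up to 0.152). Parp14, a mono-ADP-ribosyltransferase, was called with the block (log2FC −0.35 ± 0.16 SE, p adj = 0.122; 0.000488 with the block), with only the 6 libraries compared (p adj = 0.0912), and without Ctrl replicate 3, DMF replicate 2 or DMF + GSH replicate 3 (p adj 0.0556 to 0.0719). Usp18, which removes ISG15 from proteins, had 12 to 50 reads per library and was not called.

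The inducible GTPases held 6 of the 12 called members and moved in both directions, with 4 of 10 higher and 2 lower, 60% against the 38.2% of all genes (plot of called members). With the block 9 of the 10 were called, 6 higher and 3 lower, 90% against 52.0% of all genes. Of the 4 IRG genes, 3 rose (Iigp1, Irgm1 and Igtp) and 0 fell, and of the 6 GBP rows, 1 rose (the row named Gbp6) and 2 fell (Gbp2 and Gbp3). With the block it was 4 IRG genes higher, and 2 GBP rows higher (Gbp4 and Gbp6) and 3 lower (Gbp2, Gbp3 and Gbp5). These counts were split by class after the values were seen, and a difference between the classes was not tested. Without Ctrl replicate 3, 7 of the 10 were called, 4 higher and 3 lower, against 43.2% of all genes. Both classes act on the vacuoles of intracellular pathogens.

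Iigp1 (IRGA6, chr18:60376027-60392634), an effector IRG that coats such vacuoles, had 197, 227 and 321 in Ctrl, 578, 779 and 804 in the DMF libraries and 317, 315 and 369 in the DMF + GSH libraries. Every DMF library was higher than every Ctrl library, with log2 differences of 1.54, 1.78 and 1.32 within replicate numbers 1, 2 and 3. Its 2.92-fold rise was the largest among the members (log2FC 1.55 ± 0.14 SE, p adj = 0.00124). It stayed called at p adj < 0.1 with each library left out (p adj up to 0.0272). Irgm1 (chr11:48861968-48871683), a regulatory IRG that keeps the effector IRG inactive on own membranes, had 661, 833 and 828 in Ctrl, 1291, 1237 and 1062 in the DMF libraries and 801, 867 and 727 in the DMF + GSH libraries (log2FC 0.63 ± 0.12 SE, p adj = 0.00722). Igtp (IRGM3, chr11:58199556-58207591), a further regulatory IRG, had 1616, 1876 and 1664 in Ctrl, 2336, 2474 and 2376 in the DMF libraries and 1524, 1824 and 1890.2 in the DMF + GSH libraries (log2FC 0.48 ± 0.074 SE, p adj = 0.00543). For both, all DMF libraries exceeded all Ctrl libraries, and both calls held with each library left out. Irgm2 was called only with the block (log2FC 0.31 ± 0.16 SE, p adj = 0.187; 0.00783 with the block), and it shares 162 bases of exon with Igtp on the same strand.

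Gbp2 (chr3:142620602-142638008), the most abundant GTPase transcript, had 4770.3, 5131 and 3777 in Ctrl, 1801, 3314 and 1587 in the DMF libraries and 4767, 4924 and 3377 in the DMF + GSH libraries. All DMF libraries were lower than all Ctrl libraries (log2FC −1.10 ± 0.26 SE, p adj = 0.0145), and the call held with each library left out (p adj up to 0.0978). Gbp3 (chr3:142560026-142573209), in the same cluster on chromosome 3, had 316, 309 and 250.3 in Ctrl, 206, 271 and 154 in the DMF libraries and 345, 277 and 229 in the DMF + GSH libraries. Ctrl and DMF overlapped, and DMF was lower within each replicate number (log2FC −0.50 ± 0.20 SE, p adj = 0.0853). This call was lost in 6 of 9 fits with 1 library left out, those without Ctrl or DMF + GSH replicate 1 or 2 or DMF replicate 1 or 3 (p adj up to 0.308). The row named Gbp5 carries the identifier that GENCODE vM21 gives to Gbp2b, at chr3:142594847-142619179. It was called with the block (log2FC −0.49 ± 0.23 SE, p adj = 0.133; 0.000521 with the block) and without Ctrl replicate 3 (p adj = 0.0998) or DMF replicate 2 (p adj = 0.0071). Gbp7, the remaining member on chromosome 3, had 176 to 431 reads per library and was called lower without DMF replicate 2 (p adj = 0.0797). With all libraries it was not called, also not with the block (p adj = 0.394).

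Gbp4 and the row named Gbp6 lie on chromosome 5. Of their neighbours there that are no members, Gbp8 (log2FC −0.21, p adj = 0.595; 0.363 with the block) was not called, and Gbp9 (log2FC −0.41, p adj = 0.321; 0.0266 with the block) was called lower with the block, and both were called lower without DMF replicate 2 (p adj = 0.0865 and 0.0416). The row named Gbp6 carries the identifier of a predicted gene (Gm43302, chr5:105214907-105293695) whose exons overlap those of Gbp6 and Gbp10 by 40.0% and 41.6% of its length, so that its reads cannot be assigned to 1 of these genes. Its normalized counts were 122, 102 and 107 in Ctrl, 171, 239 and 153 in the DMF libraries and 168, 132 and 123 in the DMF + GSH libraries, with each DMF library above each Ctrl library (log2FC 0.74 ± 0.18 SE, p adj = 0.0162). Gbp4 was called with the block (log2FC 0.37 ± 0.16 SE, p adj = 0.105; 0.00743 with the block), a call that was lost without DMF replicate 2 (p adj = 0.121). Without the block it was called by edgeR (p adj = 0.0928) and without DMF replicate 3 (p adj = 0.0594) or DMF + GSH replicate 3 (p adj just under 0.1). GBP genes are close relatives, and how the authors' counting treated reads that fit several of them is not given.

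**Figure D3:**
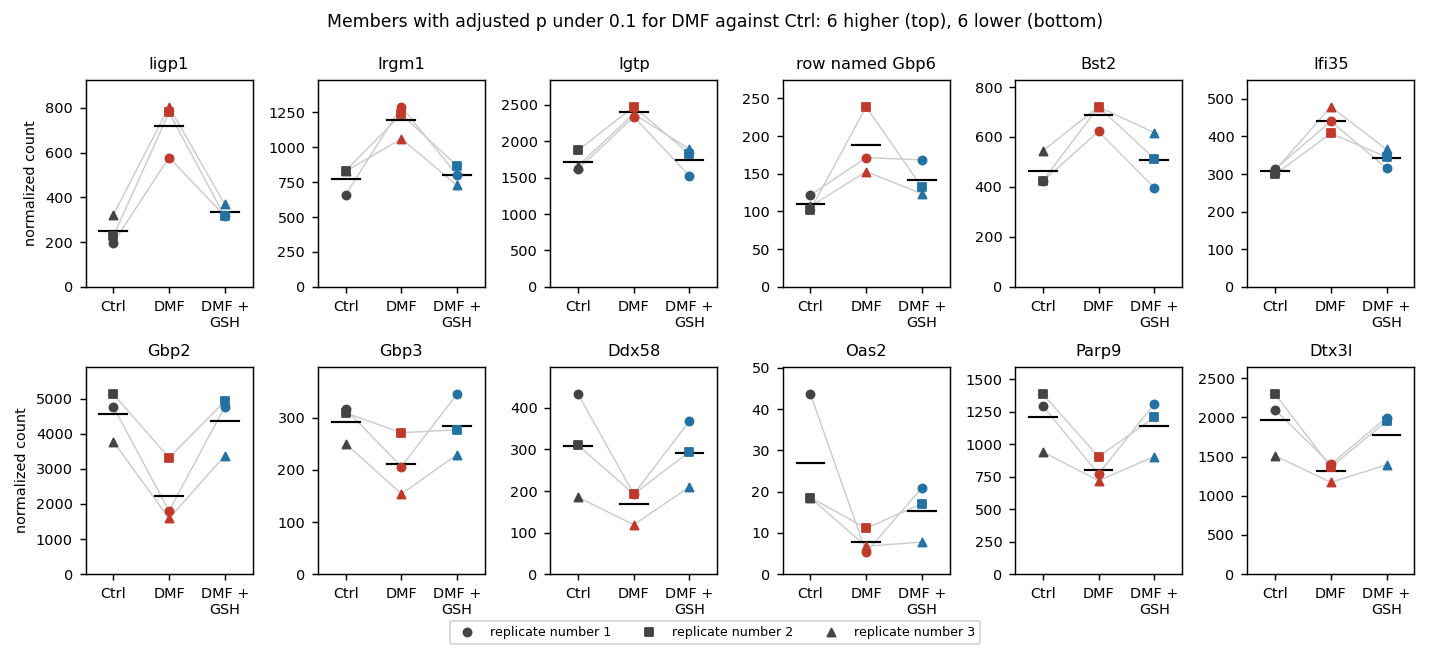
Normalized counts (y axis, from 0) of the 12 members called in DMF against Ctrl, for each of the 9 libraries. Bars are group means, symbols give the replicate number and grey lines join libraries of the same number. In the top row all DMF libraries lie above all Ctrl libraries. In the bottom row the mean of the DMF libraries is the lowest of the 3 groups for each gene.

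Genes of class I presentation showed the smallest differences. None of the 6 was called, their log2FC ranged from −0.035 to 0.16, and the median of their absolute log2FC was 0.029 against 0.23 for all genes. B2m had 13995, 14044 and 12436 in Ctrl, 13198, 14057 and 12247 in the DMF libraries and 15389.7, 14879 and 13122 in the DMF + GSH libraries, a log2FC of −0.035 with a 95% interval of −0.23 to 0.16. H2-K1, a class I heavy chain, had 13118, 12611 and 11619 in Ctrl, 13460.5, 15509 and 12789.9 in the DMF libraries and 13409, 13858 and 12096 in the DMF + GSH libraries with an interval of −0.051 to 0.37, and it was the only one called with the block (p adj = 0.0246). The other heavy chain, H2-D1, had 10569.5 to 12578 over the 9 libraries and an interval of −0.095 to 0.26. The transporter subunit genes Tap1 and Tap2, whose proteins carry peptides into the endoplasmic reticulum, had 3249 to 4006 and 1206 to 1425, with intervals of −0.24 to 0.20 and −0.22 to 0.18. Nlrc5, the transactivator of class I genes, had 1556 to 1921 and an interval of −0.15 to 0.15. Log2 differences below −0.24 or above 0.37 thus lay outside all 6 intervals, and smaller ones remain possible. Depth was not the limit here, as each gene had at least 848 reads per library.

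**Figure D4:**
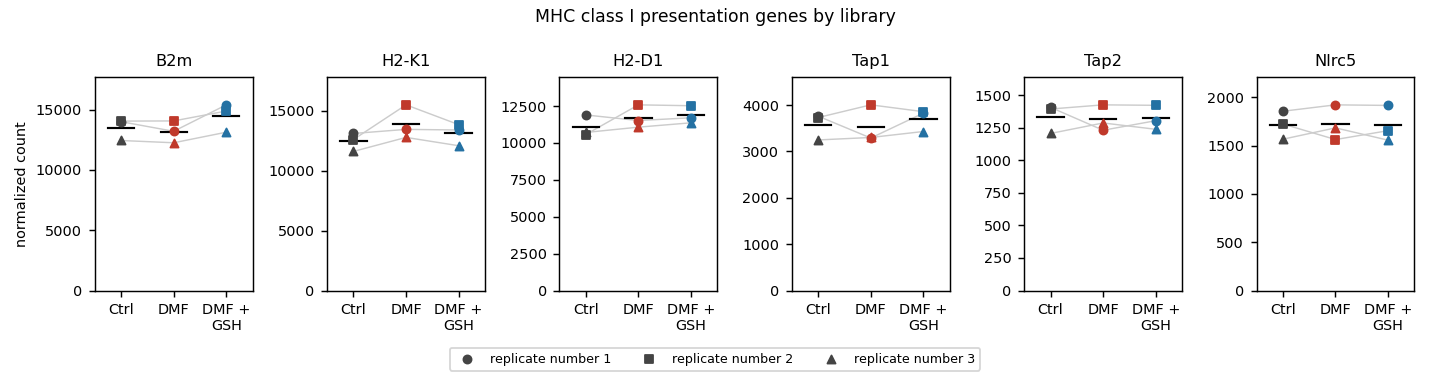
Normalized counts (y axis, from 0) of the 6 presentation genes for each of the 9 libraries. Bars are group means, symbols give the replicate number and grey lines join the same number. The 3 groups overlap for each gene.

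Genes upstream of the members were examined from lists of ligands, receptors and signalling genes. Among the ligands, Ifng had 59.2, 139 and 118 in Ctrl, 706, 597 and 921 in the DMF libraries and 94.6, 118 and 82.6 in the DMF + GSH libraries. Each DMF library was above all Ctrl libraries (log2FC 2.87 ± 0.25 SE, p adj = 0.00124), in cultures that all held an antibody against IFN-γ. Ifnb1, Ifna2, Ifna4, Ifna5, Ifne, Ifnl2 and Ifnl3 had 0 reads in all 9 libraries, and Ifna1 and Ifnk lay below the minimum. A count of 0 allows up to 3 reads per library, for counting error only.

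The receptor chains moved the other way. Ifngr1, the ligand-binding chain of the IFN-γ receptor, had 2429, 2285 and 2140.1 in Ctrl, 1100.3, 1635 and 1139 in the DMF libraries and 2309, 2119 and 1861 in the DMF + GSH libraries and passed the stricter rule (log2FC −0.84 ± 0.14 SE, p adj = 0.00649). Ifngr2, its signalling chain, had 335, 367 and 273 in Ctrl, 220.1, 247 and 212 in the DMF libraries and 303, 363 and 314 in the DMF + GSH libraries (log2FC −0.51 ± 0.13 SE, p adj = 0.0187). Every DMF library was below every Ctrl library for both chains, and both calls held with each library left out. Of the type I receptor chains, Ifnar1 had 1484, 1518 and 1332 in Ctrl, 1022, 1258 and 962 in the DMF libraries and 1557, 1687 and 1197 in the DMF + GSH libraries (log2FC −0.43 ± 0.14 SE, p adj = 0.0442). Ifnar2 had 503, 517 and 506 in Ctrl, 396, 422 and 451 in the DMF libraries and 472, 499 and 420.0 in the DMF + GSH libraries (log2FC −0.27 ± 0.09 SE, p adj = 0.0496). They too were lower in each DMF library than in any Ctrl library (plot of ligand, receptors and transducers), but these calls were lost without Ctrl replicate 1 or 2 or DMF replicate 1, that of Ifnar1 also without DMF replicate 3 (p adj up to 0.202 and 0.223).

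Of the transducers, Stat2 had 672, 631 and 520.5 in Ctrl, 424, 533 and 457 in the DMF libraries and 647, 606 and 561 in the DMF + GSH libraries and was lower with DMF (log2FC −0.36 ± 0.12 SE, p adj = 0.0459). Irf1, encoding a transcription factor induced by IFN-γ, had 1725, 1198 and 961 in Ctrl, 2208, 1246 and 1296 in the DMF libraries and 1650.3, 1261 and 1251 in the DMF + GSH libraries and was higher (log2FC 0.28 ± 0.10 SE, p adj = 0.0666). For both genes the Ctrl and DMF libraries overlapped, and the direction was the same within each replicate number. Both calls were lost without Ctrl replicate 1 or DMF replicate 1 or 3 (p adj up to 0.251 and 0.309). That of Stat2 was also lost without Ctrl replicate 2. That of Irf1 was also lost without Ctrl replicate 3, the library with myeloid transcripts, there with the block too (p adj = 0.106). Irf9 and Irf7, the DNA-binding partner of STAT2 and an amplifier of type I interferon, were called with the block (p adj = 0.000576 and 0.0128) and not without it when all libraries were used (p adj = 0.105 and 0.211). Without DMF replicate 2 both were called (p adj = 0.0411 and 0.0169), and Irf9 also in 4 other fits, among them that without Ctrl replicate 3 (p adj = 0.0355). Irf9 had 658, 658 and 495 in Ctrl, 489.8, 529 and 405 in the DMF libraries and 654, 687 and 515 in the DMF + GSH libraries. Irf7 had 64.4, 28.8 and 22.8 in Ctrl, 24.3, 36.0 and 2.9 in the DMF libraries and 45.1, 51.2 and 17.5 in the DMF + GSH libraries, and its groups overlapped.

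**Figure D5:**
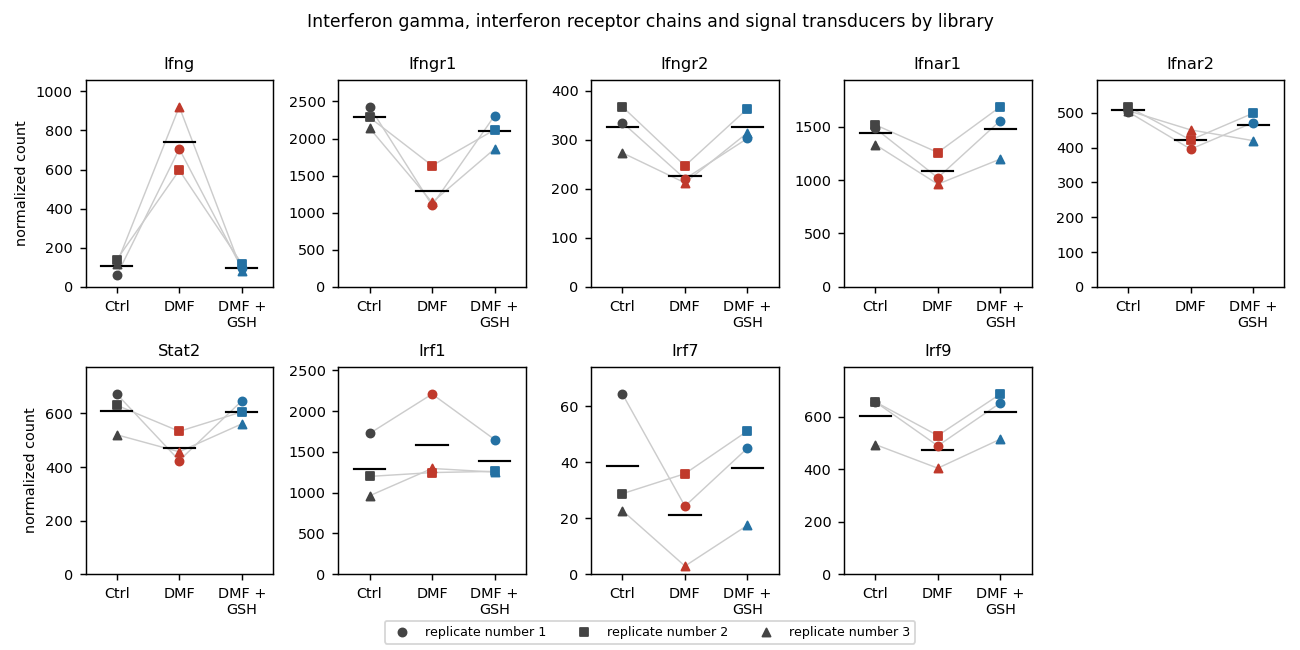
Normalized counts (y axis, from 0) of Ifng, 4 interferon receptor chains and 4 signal transducers for each of the 9 libraries. Bars are group means, symbols give the replicate number and grey lines join the same number. Ifng is highest in the DMF libraries, whereas Ifngr1 and Ifngr2 are lowest there.

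Of all 20 receptor and signalling genes, 11 were called (2 higher, 9 lower), or 55.0%. Besides the named ones, the Janus kinases Jak2 (log2FC −0.47 ± 0.095 SE, p adj = 0.00911) and Jak1 (log2FC −0.27 ± 0.09 SE, p adj = 0.0479), the repressor Irf2 (log2FC −0.65 ± 0.18 SE, p adj = 0.0264) and the DNA-sensing adaptor Tmem173 (STING; log2FC −0.26 ± 0.068 SE, p adj = 0.0216) were lower, and the phosphatase Ptpn2 (log2FC 0.19 ± 0.074 SE, p adj = 0.0811) was higher. The call of Jak2 held with each library left out, and the other 4 were lost without Ctrl replicate 1 or DMF replicate 1 (p adj up to 0.262). Those of Jak1, Irf2 and Ptpn2 were also lost without Ctrl replicate 2 or DMF replicate 3, and that of Ptpn2 without DMF + GSH replicate 1. Of 40 further interferon-stimulated genes tested, 13 were called (2 higher, 11 lower), or 32.5%. The 18 further genes of the class I pathway were all tested, and 7 of them were higher and 0 lower. Those 7 were the chaperones Calr (log2FC 0.50), Canx (0.37) and Pdia3 (0.23), which fold many proteins of the endoplasmic reticulum, the peptide-trimming Erap1 (0.31), the tapasin relative Tapbpl (0.33), and Psme1 (0.28) and Psme2 (0.29), the subunits of a proteasome activator. The calls of Calr, Erap1 and Tapbpl held with each library left out, and those of the other 4 were lost without DMF replicate 1 (p adj up to 0.261). Those of Canx and Pdia3 were also lost without Ctrl replicate 1 or 2 or DMF replicate 3, and that of Pdia3 without DMF + GSH replicate 1. Against 38.2% of all genes, these shares (55.0%, 32.5% and 38.9%) are given as a description of the lists. With the block they had 15 of 20 (4 higher, 11 lower), 22 of 40 (3 higher, 19 lower) and 12 of 18 called (10 higher, 2 lower), against 52.0% of all genes. Without Ctrl replicate 3 the lists had 13 of 20 (3 higher, 10 lower), 15 of 40 (2 higher, 13 lower) and 8 of 18 called (7 higher, 1 lower), against 43.2% of all genes.

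DMF + GSH was compared with DMF to ask which members differ once GSH, a thiol antioxidant, is present. With GSH, Iigp1, Irgm1, Igtp, Bst2 and Ifi35 were lower by 1.29- to 2.14-fold, and Gbp2, Ddx58, Parp9, Dtx3l, Zbp1 and Ifit2 were higher by 1.30- to 2.03-fold. This comparison shares its DMF libraries with the one above, so that opposite signs in both are not independent. At p adj < 0.1, 11 of 32 members were called (6 higher and 5 lower with GSH), 34.4% against 33.3% of all genes (15.7% higher, 17.6% lower). The stricter rule gave 1 member, Iigp1, against 0.543% of all genes. With the block, 19 members were called (11 higher, 8 lower), 59.4% against 48.7% of all genes (23.5% higher, 25.3% lower), the 11 among them, and 3 passed the stricter rule (Iigp1, Ddx58 and Gbp2; 5.69% of all genes). The 8 added with the block were Gbp3, the rows named Gbp5 and Gbp6, Irgm2, Isg20, Oas2, Parp14 and B2m. The median log2FC of the members was 0.062 against −0.0017 for all genes. The ranges of the groups did not overlap for 9 of 32 members, or 28.1%, against 38.3% of all genes.

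Members lower with GSH than with DMF alone were Iigp1 (log2FC −1.10 ± 0.14 SE, p adj = 0.00646), Irgm1 (log2FC −0.58 ± 0.12 SE, p adj = 0.0131), Igtp (log2FC −0.46 ± 0.074 SE, p adj = 0.0103), Bst2 (log2FC −0.45 ± 0.12 SE, p adj = 0.0258) and Ifi35 (log2FC −0.37 ± 0.094 SE, p adj = 0.0237). For each of these 5, all DMF + GSH libraries were below all DMF libraries. The calls of Iigp1 and Igtp held with each library left out. That of Irgm1 was lost without DMF replicate 1 (p adj 0.101), and those of Bst2 and Ifi35 in 3 such fits each, all without a DMF or DMF + GSH library (p adj up to 0.147 and 0.13). The row named Gbp6 and Irgm2 were called only with the block (p adj = 0.0417 and 0.00506, against 0.137 and 0.167 without).

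Members higher with GSH than with DMF alone were Gbp2 (log2FC 1.02 ± 0.26 SE, p adj = 0.0226), Ddx58 (log2FC 0.79 ± 0.24 SE, p adj = 0.0401), Parp9 (log2FC 0.50 ± 0.16 SE, p adj = 0.0521), Dtx3l (log2FC 0.43 ± 0.16 SE, p adj = 0.0794), Zbp1 (log2FC 0.42 ± 0.16 SE, p adj = 0.0888) and Ifit2 (log2FC 0.38 ± 0.13 SE, p adj = 0.0568). All DMF + GSH libraries lay above all DMF libraries for Gbp2, Ddx58, Parp9 and Ifit2, and the groups overlapped for Dtx3l and Zbp1. Each of these 6 calls was lost without DMF replicate 1 or DMF + GSH replicate 1, and all but that of Gbp2 also without DMF replicate 3 or DMF + GSH replicate 2 (p adj up to 0.311). Those of Dtx3l and Zbp1 were lost without Ctrl replicate 1 too. The count of called members was 2 without DMF replicate 1 (3.65% of all genes), 3 without DMF + GSH replicate 1 (6.74%), and 5 without DMF replicate 3 (14.1%) or DMF + GSH replicate 2. The stricter rule then gave 0 members in each of these 4 fits (0 to 4 of all 11599 genes) and without Ctrl replicate 1 (7 of all genes), and 2 without DMF replicate 2 (480 of all genes, or 4.14%). With the block all 11 calls held in all such fits. Upstream, Ifng was lower (log2FC −2.89 ± 0.25 SE, p adj = 0.00315), and Ifngr1 (log2FC 0.72 ± 0.14 SE, p adj = 0.0134), Ifngr2 (log2FC 0.53 ± 0.13 SE, p adj = 0.0216) and Ifnar1 (log2FC 0.45 ± 0.14 SE, p adj = 0.0434) were higher with GSH. The calls of these receptor chains were lost without DMF replicate 1 (p adj up to 0.205), and that of Ifng held with each library left out. Those of Ifngr1 and Ifnar1 were also lost without DMF + GSH replicate 1, and that of Ifnar1 without DMF replicate 3 or DMF + GSH replicate 2. None of the presentation genes was called, and with the block B2m was (p adj = 0.0413), with log2 differences of 0.22, 0.082 and 0.10 within the replicate numbers.

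DMF + GSH was finally compared with Ctrl, to ask what of the DMF response remains with GSH. With limma, 0 of 32 members were called under either rule, against 0% of all genes, and edgeR on the recovered reads also gave 0. With the block 0 members were called, against 0.103% of all genes. At an unadjusted p under 0.05 there was 1 member, Iigp1, among 222 genes in all. Iigp1 had a log2FC of 0.45 with a 95% interval of 0.14 to 0.76 (p adj = 1; 0.148 with the block). The DMF + GSH libraries (317, 315 and 369) overlapped with Ctrl only through Ctrl replicate 3 (321), the library with myeloid transcripts. Without it 0 members were again called, against 0% of all genes (1 member and 415 genes at an unadjusted p under 0.05), and the ranges did not overlap for 6 members, or 18.8%, against 17.7%. The log2FC of Iigp1 was then 0.61 (p adj = 0.958), and with the block Iigp1 was called without Ctrl replicate 3 (p adj = 0.072) or without DMF replicate 2 (p adj = 0.0616). The median log2FC of the members was −0.0055 against −0.0005 for all genes, and the ranges did not overlap for 2 of 32 members, or 6.25%, against 4.47% of all genes. A p adj above the threshold does not show that the groups are alike, and the 95% intervals of the members reached from −1.76 to 1.95, widest among the low effectors.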

How the data were processed

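The authors aligned 50-bp single reads of poly(A) libraries to GRCm38 with STAR 2.4.0b (quality control with FastQC), counted reads per gene with featureCounts and deposited counts divided by a size factor per library, a signal in normalized counts, together with columns of a group comparison that the authors made themselves (log2 fold changes, test scores and p-values), which were not used here. Strand use and the treatment of multi-mapping reads are not given in the sources used here. Dividing by the smallest step gave whole reads for 100% of values above 0 (tolerance 0.01), and their sums were taken as depth. Replicates differed by more than sampling noise.

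The members, gene lists and tests were chosen with earlier results of these data known. limma-trend (limma 3.58.1, R 4.3.3) was fitted to log2(normalized count + 1) of 9 libraries with group and preparation batch, over 11599 genes with a mean of at least 10, and p adj is Benjamini-Hochberg over these genes. The fold changes are on that log2 scale and understate changes of low genes. Calls used p adj < 0.1, or p adj < 0.01 with an absolute log2FC of at least 0.75. Deviations from the group means were positively correlated between libraries of equal replicate number (0.447 to 0.578 in 9 pairs), so values with the number as a block stand where they change a call. Between those of different number the correlation was negative (−0.471 to −0.0621 in 18 pairs). As deviations within a group sum to 0, negative values there follow from the positive ones and add no evidence. A count model had been planned only for raw counts, and as the table holds normalized values, edgeR 4.0.16 was run as an alternative on the recovered reads. Further settings were TMM rescaling, no batch term, a pseudocount of 0.5 or 4, a minimum of 50 or none, only the 6 libraries compared, and each library left out in turn, also with the block.

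Values are given in every library for members with a call and for the 2 most abundant members of each role, and other members by range and count. Single values of 2 listed genes that are not members are not reported here. Positions, exon lengths and overlaps come from GENCODE vM21 (40340 of 41388 identifiers found), promoter windows from RefSeq (GRCm38.p6). Intervals cover the spread between libraries, and limits from reads cover counting error only. Matplotlib 3.10.9 drew the plots in Python 3.11.15.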

Additional observations from a re-analysis of the deposited data

How the results depend on the processing

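Pseudocounts of 0.5 and 4, TMM rescaling, no batch term, a minimum of 50 and edgeR left the members called at p adj < 0.1 at 11 or 12 for DMF against Ctrl and at 11 for DMF + GSH against DMF. The share of all genes called was 34.2% (no batch term) to 43.2% (minimum of 50) and 28.9% to 37.6% in the same settings. With the minimum of 50 only 26 members were tested, of which 42.3% were called in either comparison. With no minimum the counts were 12 and 10 of 42, against 14.7% and 11.2% of all 26629 genes, a set with a larger part of low genes than the members have. For DMF against Ctrl, edgeR shared 11 of its 12 called members with limma. The replicate block raised both counts to 19 (52.0% and 48.7% of all genes), and under the stricter rule it gave 4 and 3 members (6.80% and 5.69% of all genes). For DMF against Ctrl the stricter rule gave 2 members with no minimum (Gbp2 and Iigp1), against 1.69% of all 26629 genes. For DMF + GSH against DMF it gave 0 with no batch term (0.241% of all genes) and 0 with only the 6 libraries compared (0.0431%). Leaving out 1 library gave 7 to 18 members called and 0 to 5 under the stricter rule for DMF against Ctrl, and 2 to 16 and 0 to 2 for DMF + GSH against DMF. With the replicate block, leaving out 1 library gave 18 to 20 and 3 to 5 for DMF against Ctrl, 17 to 20 and 2 to 3 for DMF + GSH against DMF, and 0 to 1 called for DMF + GSH against Ctrl. Over these fits the share of all genes called was 15.2% to 43.2% for DMF against Ctrl and 3.65% to 36.8% for DMF + GSH against DMF, and with the block 42.6% to 54.0% and 38.1% to 49.4%. Under the stricter rule these shares were 0.0172% to 5.86% and 0% to 4.14%, and with the block 4.84% to 7.46% and 3.48% to 6.28%. For DMF + GSH against Ctrl with the block, 0% to 0.233% of all genes were called at p adj < 0.1. The highest counts, 18 (56.2%) and 16 (50%), both without DMF replicate 2, stood against 41.1% and 36.8% of all genes. Fits without 1 library rest on fewer samples. Where a group is left with 1 library in a batch, that library is assumed to vary like the others.

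The median log2FC of the members was 0.035 in DMF + GSH against Ctrl with a minimum of 50. Without 1 library it ranged from −0.11 to 0.10 there (−0.015 to 0.046 with the block), from −0.015 to 0.19 in DMF + GSH against DMF (−0.004 to 0.15 with the block) and from −0.20 to 0.016 in DMF against Ctrl (−0.078 to 0.003 with the block). For DMF against Ctrl, the sign of 4 presentation genes turned in some fits without 1 library, between −0.13 and 0.056 for Tap1, −0.10 and 0.044 for Tap2, −0.024 and 0.051 for Nlrc5 and −0.10 and 0.012 for B2m, none of them called. With the replicate block, the sign turned without Ctrl replicate 1 (Tap1 0.026, Tap2 0.044, Nlrc5 −0.020), without DMF replicate 1 (Tap1 0.056, Tap2 0.039, Nlrc5 −0.0052), and for Nlrc5 without Ctrl replicate 3 (−0.020) or DMF replicate 3 (−0.046). The median of DMF + GSH against Ctrl was then 0.043 without Ctrl replicate 1 and 0.046 without DMF + GSH replicate 2. The cause was not tested. Of 2182 values of single genes under another setting, 1842 kept direction and call, 162 gained the call, 157 lost it and 21 turned in sign. With the replicate block and all libraries, 15 of 81 gained the call and 0 lost it.

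Low counts limit the 10 members below the minimum and Oas2, Isg20, Xaf1, Usp18 and Ifih1. With 3 libraries a group and no label that ties them to mice or cultures, the spread between mice or cultures is not known.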

Other observations

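Among the 47 further interferon-stimulated genes looked up beside the members, 45 were in the table and 40 were tested. The names here were chosen after their values were seen. Lower with DMF than in Ctrl (limma, 3 libraries each) were Samhd1, a nuclease that limits deoxynucleotides (log2FC −0.76 ± 0.17 SE, p adj = 0.0116), Pml, the organizer of nuclear bodies (log2FC −0.48 ± 0.093 SE, p adj = 0.00809), Sp100, a further nuclear body gene (log2FC −0.63 ± 0.18 SE, p adj = 0.028), Slfn1, a regulator of T cell quiescence (log2FC −1.10 ± 0.35 SE, p adj = 0.0425), and Phf11b (log2FC −1.62 ± 0.43 SE, p adj = 0.0222). Samhd1 had 11635, 11535 and 8309 in Ctrl, 5993, 7206 and 5358 in the DMF libraries and 11137, 11126 and 7975 in the DMF + GSH libraries, so that all DMF libraries lay below all Ctrl libraries. The RNA helicase gene Mov10 was higher (log2FC 0.46 ± 0.11 SE, p adj = 0.0161), with 556, 535 and 626 in Ctrl, 826, 762 and 774 in the DMF libraries and 593, 526 and 702 in the DMF + GSH libraries. The calls of Samhd1 and Pml held with each library left out, those of Mov10 and Phf11b were lost without DMF replicate 1, and those of Sp100 and Slfn1 without Ctrl replicate 1 or 2 or DMF replicate 1 or 3.

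Of 7 MHC class II genes, 3 reached the minimum mean. Of these, 1 was called with all libraries, and without Ctrl replicate 3, the library with myeloid transcripts, all 3 were, against 43.2% of all genes. Cd74, the invariant chain, was then higher (log2FC 0.43, p adj = 0.0773, against 0.22 and 0.417 with it) and H2-DMa, a subunit of the peptide exchanger H2-DM, lower (log2FC −0.52, p adj = 0.0968, against −0.29 and 0.379 with it). With the replicate block and all libraries, neither Cd74 nor H2-DMa was called (p adj = 0.279 and 0.114). H2-Ab1, a class II β chain, was lower with DMF (log2FC −1.41 ± 0.38 SE, p adj = 0.0228), with 19.7, 55.7 and 28.4 in Ctrl, 9.52, 15.4 and 9.68 in the DMF libraries and 30.8, 23.8 and 19.4 in the DMF + GSH libraries, and the call was lost without DMF replicate 1 (p adj 0.104). Itgax, a marker of dendritic and other myeloid cells, had 7.28, 15.8 and 7.11 in Ctrl, 4.23, 2.57 and 5.81 in the DMF libraries and 7.7, 5.94 and 6.81 in the DMF + GSH libraries. It was highest in Ctrl replicate 2 like H2-Ab1 and without overlap of DMF and Ctrl. Itgax had only 3 to 17 reads per library and a mean of 7.03, below the minimum. The myeloid markers Lyz2, Csf1r, Cd14 and C1qa were instead highest in Ctrl replicate 3, and their Ctrl and DMF libraries overlapped. The part of myeloid cells in the result was not tested. H2-Aa was at 15.6 in Ctrl replicate 3 and at most 1.06 elsewhere.

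Ly6a, encoding the surface protein Sca-1, was the only gene of the pathway lists with a call in DMF + GSH against Ctrl, and only with the replicate block (log2FC −0.42, p adj = 0.00791 with the block and 1 without, limma). Its normalized counts were 2232, 2072 and 1853 in Ctrl, 2016, 2209 and 1744 in the DMF libraries and 1749, 1574 and 1309 in the DMF + GSH libraries. All DMF + GSH libraries lay below all Ctrl libraries and below the DMF library of the same number, and 12 of 11599 genes had such a call with the block. With the block and without Ctrl replicate 1, 0 of 11599 genes had such a call, so that of Ly6a was lost there. The count was 1 without DMF + GSH replicate 2 and 27 without DMF replicate 2.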
